A study of Mus musculus with 4 samples.

Results

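The comparison described here is between GFP-high clone cells of the mouse intestine traced for 72 h and those traced for 48 h. A barcode was counted as a cell when it held at least 1000 gene UMIs (unique molecular identifiers, each standing for 1 captured RNA molecule), at least 500 genes, under 20% mitochondrial UMIs and a top hashtag with at least 60% of its hashtag counts. By this rule 732 clone cells were found, 76 at 48 h and 656 at 72 h, among 2011 passing cells and 5452 deposited barcodes. Hashtags A0303 and A0304 in pool 1 and A0301 and A0302 in pool 2 marked the 48 h clones, and A0307 and A0308 in pool 1 and A0305 and A0306 in pool 2 the 72 h clones. Counts were summed per hashtag number, which stands for 1 mouse, so that 4 sums of 48 h were compared with 4 of 72 h without pairing.

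All 8 mice carried Lgr5-EGFP-IRES-CreERT2 and Rosa26-mTmG and received 4-OH-tamoxifen. Mice 1 to 4 were traced for 48 h and mice 5 to 8 for 72 h. Epithelium of the distal small intestine was dissociated after the villi had been scraped away, stained for EpCAM, CD31 and CD45, and sorted by GFP. The GFP-high gate gave the clones, and the GFP-negative gate gave cells without recombination, which served as control. The clones of mice 3, 4, 7 and 8 shared pool 1 with the control cells of mice 1, 2, 5 and 6, and pool 2 held the reverse, so that both pools held both times. The recombinase is driven by the Lgr5 locus, so clones start from Lgr5-expressing cells. The Lgr5 allele also carries EGFP, which has the colour of the reporter's GFP. How far the GFP-high gate parted the 2 was not known here, and levels of Lgr5 and of other stem cell genes in the clones may depend on that gate.

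Stem cells at the base of the intestinal crypt express Lgr5, a receptor of the Wnt pathway, and renew the epithelium. Their daughters become absorptive enterocytes or one of the secretory types, which are the mucus-forming goblet cells, the antimicrobial Paneth cells, the hormone-releasing enteroendocrine cells and the chemosensory tuft cells. Notch signalling between neighbours keeps the transcription factor Atoh1 off in most daughters, and cells that escape it express Atoh1 and Notch ligands such as Dll1. The title of the study names early secretory differentiation from Lgr5+ cells, and the step from 48 h to 72 h bears on when secretory cells and their genes appear in clones.

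The clone sums differed widely in size. At 48 h they held 4, 18, 46 and 8 cells and 77566, 428117, 184676 and 130235 UMIs in mice 1, 2, 3 and 4. At 72 h they held 163, 37, 113 and 343 cells and 3965185, 779266, 2043499 and 6964208 UMIs in mice 5, 6, 7 and 8, so every 48 h sum was smaller than every 72 h sum. The clone cells of mouse 3 stood apart, with a median of 1638 UMIs per cell against 13136 to 23664 in the other 7 mice, and 36 of its 46 cells held under 5000 UMIs. In mouse 2, 1 cell gave 131899 UMIs, 30.8% of the sum. Of the barcodes whose top hashtag was a clone tag, 1231 at 48 h and 1566 at 72 h, 390 and 1355 passed the limits on UMIs and genes. The mitochondrial limit then left 270 and 741, and the hashtag share left 76 and 656. Control cells of the same mice numbered 633 at 48 h and 646 at 72 h. Of all barcodes 1 occurred in both pools, and of the passing ones 0.

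**Figure D1:**
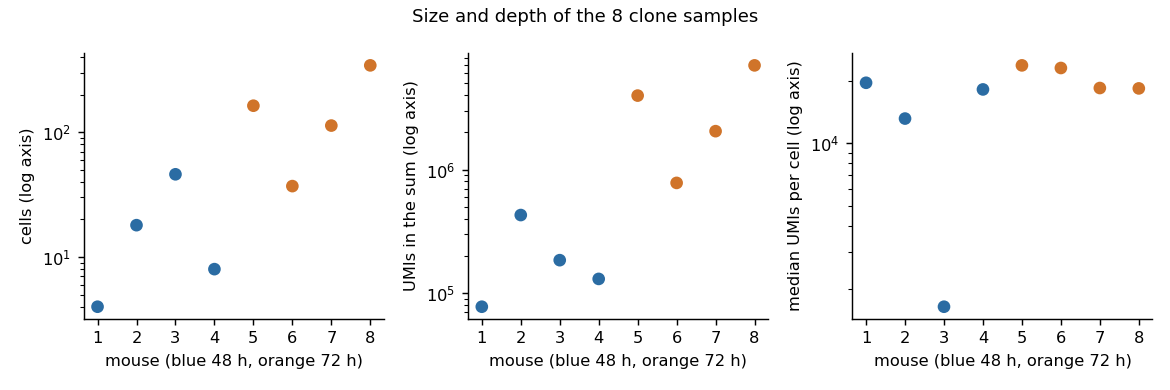
Cells, summed UMIs and median UMIs per cell (log axes) of the clone sample of each mouse, 48 h in blue and 72 h in orange. All 48 h sums lie below all 72 h sums in UMIs, and mouse 3 lies at a median of 1638 UMIs per cell.

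The clones were epithelial at both times. Epcam, the adhesion molecule used in the stain, lay at 2143 to 2422 CPM at 48 h and 2242 to 2492 CPM at 72 h. CPM are counts per 1000000 UMIs of the summed sample, after scaling its total for composition by TMM, the trimmed mean of M values. All 8 epithelial genes listed were tested. Of the 13 immune, 6 endothelial, 8 stromal and 4 erythroid marker genes, 0 passed the filter on low counts. Their summed shares of the UMIs of a clone sample were at most 0.00164% (immune), 0.00217% (endothelial), 0.000541% (stromal) and 2.52e-05% (erythroid). Xist was at 0, 1.54 and 28.2 CPM in mice 1, 5 and 7, where the Y-linked Ddx3y was at 76.5, 44.6 and 55.5 CPM, and at 912 to 1564 CPM in the other 5. Of the 3 mice of low Xist 1 was thus in the 48 h group and 2 were in the 72 h group, and the part of sex in the results below was not tested.

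Goblet-like and other secretory cells made up a larger mean share of the clones at 72 h, and the unnamed cluster 6 a smaller one, but the mice of each time spread widely and no class passed its test. Classes are clusters of all 2011 cells, called "X-like" after the marker list with most hits among their leading genes. Clusters whose leading genes by fold went against that name are given by number. Secretory classes together (Paneth-like, goblet-like, enteroendocrine-like and tuft-like) took 0 of 4, 0 of 18, 4 of 46 and 2 of 8 clone cells in mice 1, 2, 3 and 4 at 48 h. At 72 h they took 29 of 163, 14 of 37, 14 of 113 and 99 of 343 in mice 5, 6, 7 and 8. The means were 8.42% ± 11.8 and 24.2% ± 11.4 (SD, n = 4 mice), a difference of 15.8 percentage points (exact two-sided permutation p = 0.114). Mouse 4, at 25.0%, lay within the 72 h range of 12.4% to 37.8%, and the other 48 h mice lay below it. The Wilson 95% interval of mouse 4 (7.15% to 59.1%) held all 4 of the 72 h shares. The control cells of the same mice had 42.6% ± 5.81 and 36.8% ± 10.1 (SD, n = 4, exact p = 0.4). The clone difference was -3.24 points with a mitochondrial limit of 50% in place of 20% and 8.70 points with one of 10% (exact p = 0.714 and 0.457). It was 3.04 and 5.69 points with top hashtag shares of 50% and 80% in place of 60%, and 8.33 points at a coarser clustering (exact p of 0.4 to 0.8). At the mitochondrial limit of 50% the secretory classes counted a Paneth-like cluster of 315 cells, with medians of 4120 UMIs and 31.0% mitochondrial UMIs. It held 27 clone cells of 48 h and 132 of 72 h, and mitochondrial genes were among its leading genes. At a top hashtag share of 50% the secretory classes counted a goblet-like cluster of 65 cells, led by AY036118 and Gm42418. Its median was 1467 UMIs, and it held 46 clone cells of 48 h and 11 of 72 h. At the mitochondrial limit of 10% a cluster led by Agr2 was left unnamed, with 2 and 26 clone cells. At Leiden resolution 1.5 the secretory shares were 0%, 0%, 4.35% and 25.0% in mice 1 to 4. In mice 5 to 8 they were 16.6%, 37.8%, 10.6% and 27.4%.

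Goblet-like cells made up most of the secretory share. They averaged 7.88% ± 11.8 of the 48 h clone cells and 21.2% ± 9.40 of those of 72 h (SD over 4 mice). The exact two-sided permutation p was 0.143, and 0.309 once adjusted over 9 classes and numbered clusters. All 5 goblet-like clone cells of 48 h came from mice 3 and 4, and each 72 h mouse had 12 or more. Of the goblet-like clone cells, 2 of 5 at 48 h and 27 of 136 at 72 h lay in cluster 8. The leading genes of cluster 8 held 7 goblet markers and 5 of secretory progenitors, with Creb3l1 and Dll1 beside Fcgbp, Agr2 and Tff3. The goblet-like class thus need not hold goblet cells alone. Paneth-like cells were 0 of 76 at 48 h, which allows a share of up to 3.95%, and 4 of 656 at 72 h. Tuft-like cells were likewise 0 of 76 and then 11 of 656, of which 9 came from mouse 8. Enteroendocrine-like cells numbered 1 at 48 h, in mouse 3, and 5 at 72 h, all in mouse 8. These limits and intervals cover counting error only.

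Stem-like cells, in clusters 5 and 11, made up 3 of 4, 7 of 18, 4 of 46 and 3 of 8 clone cells in mice 1, 2, 3 and 4, a mean of 40.0% ± 27.2 (SD, n = 4). At 72 h they made up 52 of 163, 9 of 37, 48 of 113 and 84 of 343 in mice 5, 6, 7 and 8, a mean of 30.8% ± 8.55 (SD, n = 4, exact permutation p = 0.629). Mouse 3 lay below all 72 h mice, mouse 1 above them and mice 2 and 4 among them. In the control cells stem-like cells averaged 13.3% ± 5.70 and 14.3% ± 6.70 (SD over 4 mice).

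Cluster 6 was led by Gm42418 and AY036118, which were also among its 10 leading genes by fold. Those 10 held the stem gene Olfm4 and the Paneth genes Defa21 and Defa22 as well. Among all its leading genes the cluster had 7 markers of the stem list and 2 of the Paneth list, and it was left unnamed. It took 1 of 4, 4 of 18, 25 of 46 and 1 of 8 clone cells at 48 h (28.5% ± 18.04) and 28 of 163, 1 of 37, 10 of 113 and 7 of 343 at 72 h (7.69% ± 7.03, SD over 4 mice). Its exact permutation p was 0.0571, and 0.309 after adjustment. All 25 cells of mouse 3 in it had under 5000 UMIs. At Leiden resolution 1.5 a cluster with a median of 2175 UMIs was stem-like and held 28 clone cells of 48 h and 16 of 72 h. At resolution 0.6 a stem-like cluster held 30 and 136. The stem-like shares thus depend on the clustering and on the naming rule, and their difference was not tested under these alternatives. Among clone cells of at least 5000 UMIs, 1 of 31 at 48 h and 41 of 613 at 72 h lay in cluster 6, a difference of the mouse means of 0.56 points. In those deeper cells the stem-like difference was -16.3 points (13 of 31 and 177 of 613, exact permutation p = 0.314), and the secretory difference was 14.6 points.

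Dividing cells, a class named from cell cycle genes, averaged 9.66% ± 13.1 of the 48 h clones and 22.2% ± 6.51 of those of 72 h (SD over 4 mice), with an exact permutation p of 0.171. Mice 1 and 4 had 0 cells of this class among 4 and 8, while mouse 2 had 5 of 18, within the 72 h range of 13.5% to 28.9%. An Mki67 UMI was still found in 2 of 4 cells of mouse 1 and 3 of 8 of mouse 4. It was also found in 46 of 141 enterocyte-like control cells. Enterocyte-like cells made up 3.02% ± 3.51 and 4.37% ± 3.12 (SD, n = 4), and the unnamed cluster 0 took 10.4% ± 10.7 and 10.8% ± 5.52. The leading genes of cluster 0 by fold held Dmbt1 of the enterocyte list and the DNA replication genes Mcm3, Mcm4, Mcm5, Mcm6 and Pola1. The dividing class thus need not hold every cell in cycle. Within pool 1 the differences were 3.78 points for secretory, 10.4 for stem-like and 21.4 for dividing cells, and -28.0 for cluster 6. Within pool 2 they were 27.8, -28.8, 3.60 and -13.7 points, with 2 mice per time in each pool and no test. The stem-like difference turned sign between the pools, and the other three did not.

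**Figure D2:**
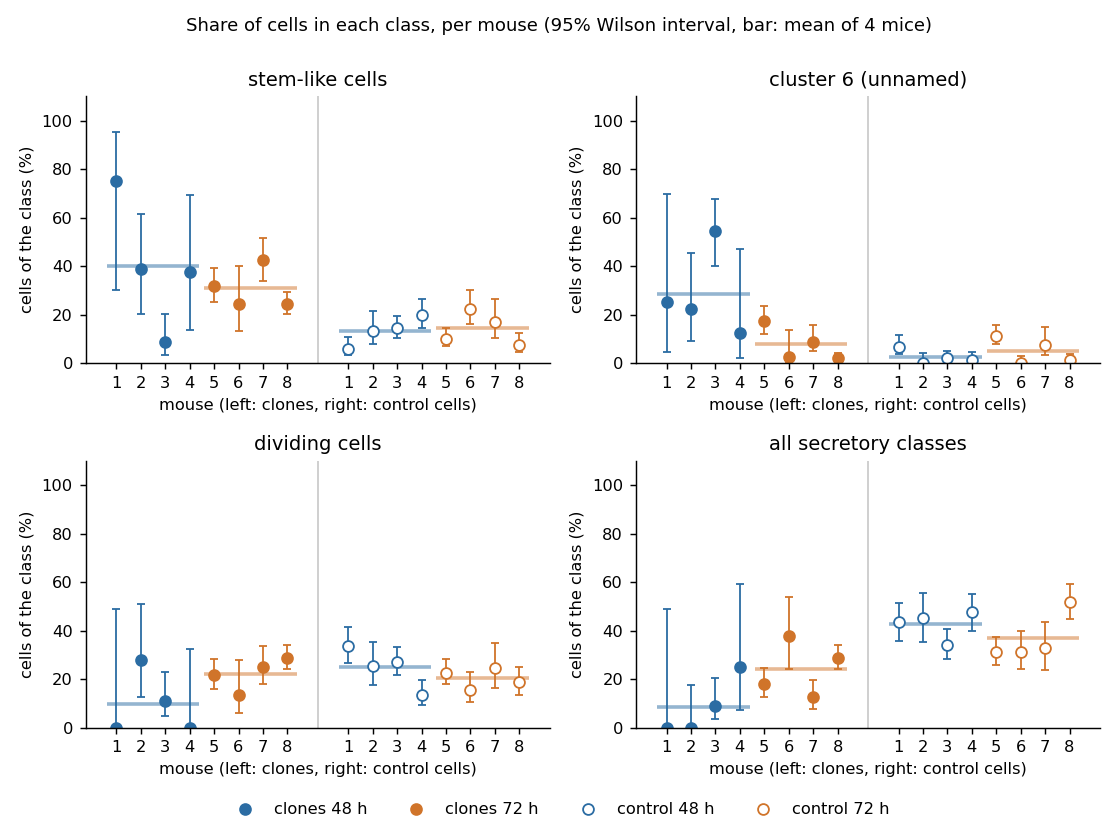
Share of cells in 3 classes and in the unnamed cluster 6 (%) for each mouse, clones on the left of each panel and control cells on the right, 48 h in blue and 72 h in orange, with Wilson 95% intervals and the mean of 4 mice as a bar. The intervals of the 48 h clones are wide, with 4 to 46 cells per mouse, and the secretory share of mouse 4 (25.0%) lies among those of the 72 h mice.

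Across all genes no difference between the clones of 72 h and 48 h passed the test, and the 3 genes nearest to passing were Defa24, Guca2b and Zg16. edgeR's quasi-likelihood test with pool as a covariate called 0 of 6651 genes at an adjusted p under 0.05 (0.0% higher and 0.0% lower), and the lowest adjusted p was 0.0985. At an unadjusted p under 0.05 it gave 219 genes higher at 72 h (3.29% of those tested) and 163 lower (2.45%). DESeq2 on the same sums called 4 genes higher and 0 lower. The 4 sums of 72 h lay entirely above those of 48 h for 176 genes (2.65%) and entirely below for 139 (2.09%). Over all genes tested the median log2 difference was 0.01, with 50.7% of estimates above 0 and 49.3% below, and the median standard error was 0.30. The filter on low counts could be passed through the 72 h sums alone. Counts and medians over the tested members of a list with low 48 h values therefore describe those members and support no direction.

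Defa24, Guca2b and Zg16 had the 3 smallest p-values. Defa24 (ENSMUSG00000064213, chr8:21734494-21735471 on the plus strand of mm10) encodes an alpha-defensin, an antimicrobial peptide of Paneth cells. It was at 676, 98.5, 290.5 and 185 CPM in the clones of mice 1, 2, 3 and 4 and at 1286, 7865, 2169.6 and 2471 CPM in mice 5, 6, 7 and 8. The groups did not overlap, and mouse 6 was the highest. The log2 difference was 3.49 ± 0.58 (SE, edgeR adjusted p = 0.0985). Alpha-defensin genes are near-identical copies of one another, so how reads were shared among them in the authors' counting is uncertain. The control cells were at 1943 and 9875 CPM on average, a log2 difference of 2.13 ± 0.36 (edgeR adjusted p = 0.104). The clone and control differences themselves differed by 1.39 ± 0.76 on the log2 scale (edgeR adjusted p = 1.0).

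Guca2b (ENSMUSG00000032978, chr4:119656607-119658954, minus strand) encodes uroguanylin, a peptide that activates guanylate cyclase C of the gut lining. Its levels were 0, 15.7, 40.1 and 8.05 CPM in mice 1, 2, 3 and 4 and 96.2, 183, 94.5 and 115 CPM in mice 5, 6, 7 and 8. Every 72 h sample lay above every 48 h sample, which held 16 counts in all. The log2 difference was 2.67 ± 0.44 (SE, edgeR adjusted p = 0.0985), and it ran from 1.97 to 3.42 over the 23 settings that tested it. Control cells were at 106 to 212 CPM in all 8 mice with a log2 difference of 0.15 ± 0.14. A Guca2b UMI was found in 66.0% of the 141 enterocyte-like control cells (median 27054 UMIs). The change in clones exceeded that in control cells by 2.56 ± 0.47 on the log2 scale (edgeR adjusted p = 0.375). This was the lowest adjusted p of that test, which called 0 of 10642 genes, with 480 at an unadjusted p under 0.05 (335 higher, 3.15%, and 145 lower, 1.36%).

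The goblet genes had higher estimates at 72 h in every member, while the 48 h mice differed widely, mice 1 and 2 being low and mice 3 and 4 higher. The summed share of the 14 genes was 0.0529%, 0.101%, 0.942% and 4.36% of UMIs in mice 1, 2, 3 and 4. At 72 h it was 1.91%, 4.57%, 2.04% and 3.19% in mice 5, 6, 7 and 8. Mice 1, 2 and 3 lay below every 72 h sample, and mouse 4 lay above 3 of the 4. In control cells the share ran from 2.83% to 4.76% at 48 h and from 2.93% to 6.60% at 72 h. All 14 members were tested and 14 had an estimate above 0. Of these, 4 had an unadjusted p under 0.05 (3.29% of all genes were higher at that level) and 0 were called. Their median log2 difference was 1.79, beside 0.01 over all genes tested. In the sums alone, fewer cells of a type and less RNA per cell cannot be told apart. By class, goblet-like cells numbered 0 of 4, 0 of 18, 3 of 46 and 2 of 8 in the 48 h clones of mice 1, 2, 3 and 4.

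Zg16 (ENSMUSG00000049350, chr7:127050156-127087328, minus strand), a lectin of goblet cell granules and mucus, had the largest estimate of the list. It lay at 25.5, 20.2, 586 and 869 CPM in mice 1, 2, 3 and 4 and at 3165, 5466, 3648 and 3347 CPM in mice 5, 6, 7 and 8. The groups did not overlap, and mice 1 and 2 were more than an order of magnitude under mice 3 and 4. The log2 difference was 4.25 ± 0.80 (SE, edgeR adjusted p = 0.242). Muc2 (chr7:141690340-141754693, plus strand), the main gel-forming mucin, lay at 25.5, 35.8, 1803 and 2656 CPM at 48 h and at 1260.5, 4365, 1679 and 2652 CPM at 72 h. Mice 3 and 4 fell inside the 72 h range, and the difference was 2.53 ± 1.09 (edgeR adjusted p = 0.853). Tff3, a trefoil peptide secreted with mucin, was at 115, 347, 1137 and 13899 CPM and then 5299, 14231, 4664 and 7435 CPM, with mouse 4 close to the highest 72 h mouse.

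Other goblet genes shared this split. Spink4, a small secreted protease inhibitor, was at 153, 129.9, 2244 and 11951 CPM at 48 h and 3565, 15424, 5106 and 7788 CPM at 72 h. Agr2, a disulfide isomerase needed for mucin folding, was at 89.3, 148, 1072 and 9078 CPM and then 2847, 4179, 1997 and 5381 CPM. For Spink4 and Agr2 mouse 4 lay within or above the 72 h range. Ern2, the stress sensor IRE1 beta of mucous cells, had an estimate of 1.47 ± 0.61, and Fcgbp, a mucus protein, 1.92 ± 0.83 (edgeR adjusted p = 0.853 for both). In control cells 0 of the 14 passed, with a median of 0.11.

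The goblet differences were far larger in pool 2 than in pool 1. Within pool 2, mice 5 and 6 against 1 and 2, the median of the list was 5.29. There edgeR called 8 of the 14 genes higher, Zg16, Agr2, Fcgbp, Clca1, Muc2, Spink4, Tff3 and Guca2a, beside 12 of all 6788 genes tested (0.177%). Mice 1 and 2 held 4 and 18 clone cells, of which 0 were goblet-like, so the 48 h side of these calls rests on few cells. Within pool 1, mice 7 and 8 against 3 and 4, the median was -0.05, with 5 of 14 estimates above 0 and 1 at an unadjusted p under 0.05. There edgeR called 0 of the 14, beside 2 of all 8728 genes (0.0229%). Muc2 was at -0.01 in pool 1 and 6.38 in pool 2, and Tff3 at -0.27 and 5.25. Zg16, whose groups did not overlap, had a positive estimate in both, 2.31 and 7.66. The median was 3.43 without mouse 4, with 13 members at an unadjusted p under 0.05, and 0.90 without mouse 2 and 1.27 without mouse 1, with 1 each. It was 2.87 without mouse 7 and 2.79 without mouse 8. Mouse 3's cells were shallow, and with cells of at least 5000 UMIs alone the median was 1.87.

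Goblet products were also found outside goblet cells. Zg16 had a UMI in 58.9% and Muc2 in 47.5% of the 141 enterocyte-like control cells (median 27054 UMIs), which should lack them. With each cell thinned to 1000 UMIs these shares were 4.96% and 1.42%. In clone cells thinned the same way Zg16 had a UMI in 36.8% at 48 h (28 of 76) and 16.3% at 72 h (107 of 656). The unthinned shares were 63.2% and 65.2%, at median depths of 2437 and 19934 UMIs. The thinned shares went against the CPM, and no order is read from them. In mouse 3 alone the thinned share was 52.2% (24 of 46), at a Zg16 level of 586 CPM.

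**Figure D3:**
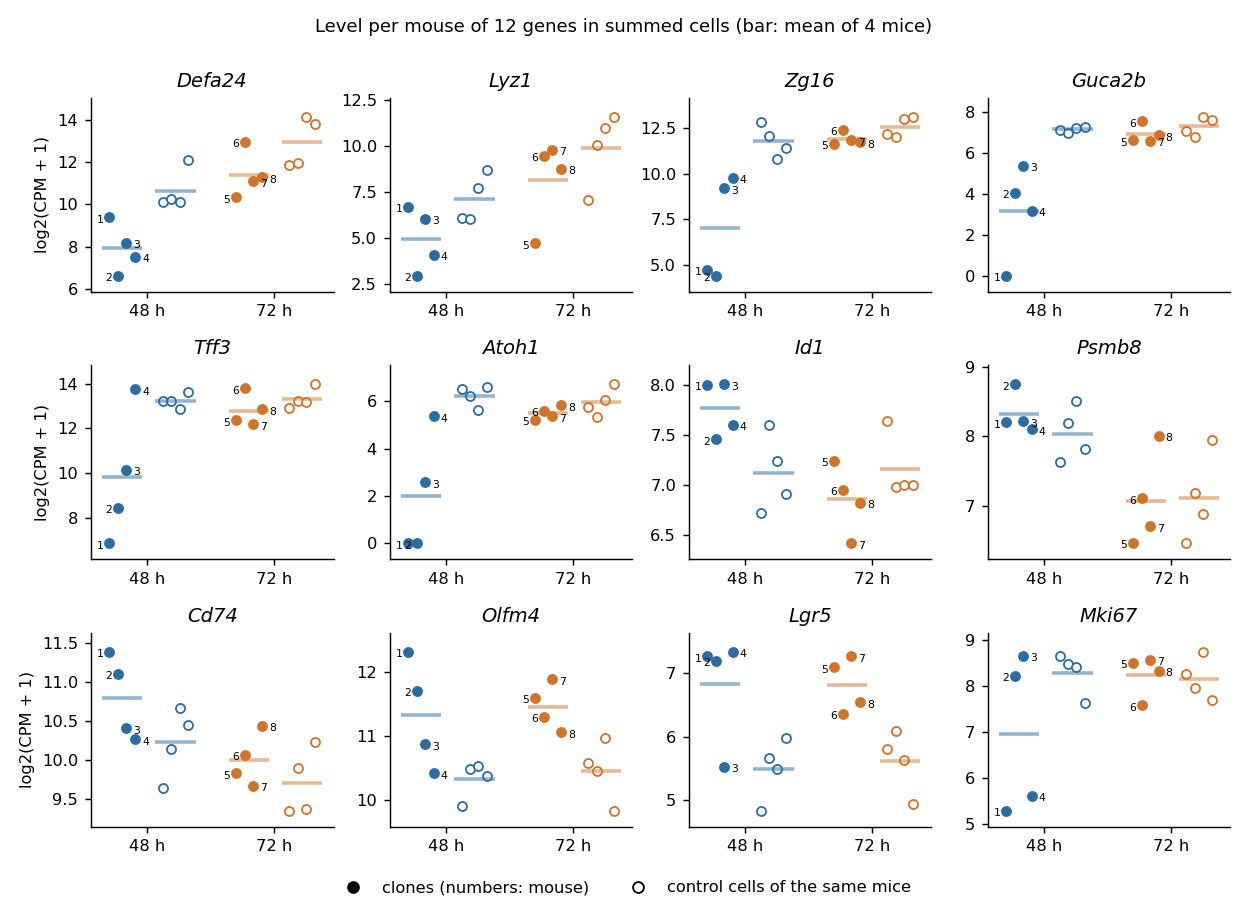
Level of 12 genes as log2(CPM + 1) in the summed clone cells (filled, numbered by mouse) and control cells (open) of each mouse, 48 h in blue and 72 h in orange, with the mean of 4 mice as a bar. Defa24, Zg16, Guca2b, Id1 and Psmb8 show no overlap between the clones of the 2 times, while for Tff3 and Atoh1 mouse 4 lies at the level of the 72 h mice.

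Paneth cell genes had higher estimates at 72 h in clones and in control cells alike. Of the 17 listed, 9 were tested in the clones and 9 had an estimate above 0. In the clones 6 had an unadjusted p under 0.05 (3.29% of all genes were higher at that level) and 0 were called. The median log2 difference was 2.20, beside 0.01 over all genes tested. In the control cells 14 were tested, 12 were higher at an unadjusted p under 0.05 (4.71% of all genes) and 3 were called (Itln1, Defa26 and Mptx2), with a median of 3.15. All genes called in control cells numbered 10 of 10734, higher at 72 h (0.0932%), and 0 lower. The summed share of the list was 0.139%, 0.0306%, 0.0964% and 0.0852% of clone UMIs in mice 1, 2, 3 and 4 and 0.196%, 0.987%, 0.488% and 0.403% in mice 5, 6, 7 and 8. Every 72 h clone sample lay above every 48 h sample, by little in mouse 5.

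Lyz1, the lysozyme of Paneth cells, was at 102, 6.72, 65.1 and 16.1 CPM in mice 1, 2, 3 and 4 and at 25.1, 711, 879 and 431 CPM in mice 5, 6, 7 and 8. Mouse 5 lay inside the 48 h range, and the other three lay above it. The difference was 3.82 ± 0.94 (SE, edgeR adjusted p = 0.84) beside 3.08 ± 0.52 in control cells (edgeR adjusted p = 0.104). Ang4, an antimicrobial ribonuclease, was at 12.8, 0, 10.0 and 16.1 CPM and then 23.9, 68.6, 48.7 and 37.5 CPM, without overlap (2.72 ± 0.74). Its 48 h values rest on 5 counts. Mmp7, the protease that processes alpha-defensin precursors, had a difference of 1.81 ± 0.67, and the lectin Itln1 2.20 ± 0.86, both with overlapping groups. Defa21 and Defa22, at 0.23 and 0.25, were highest at 48 h in mouse 1 and at 72 h in mouse 7.

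The Paneth median was 1.90 in pool 1, with 12 of 12 estimates above 0, and 3.41 in pool 2, with 6 of 9. The median was 1.31 without mouse 6. Within pool 1 Defa24 (3.29 ± 0.44) and Lyz1 (3.90 ± 0.55) were called by edgeR (adjusted p = 0.0308 for both), and Defa24, Lyz1, Guca2b and Tm4sf4 were called without mouse 5 (adjusted p from 0.0114 to 0.0438, 0.069% of 5797 genes). The clones held few Paneth-like cells, 0 of 76 and 4 of 656. Defa24 had a UMI in 63.1% of the enterocyte-like control cells and in 4.96% of them at 1000 UMIs. In clone cells at 1000 UMIs the share was 23.7% at 48 h and 20.6% at 72 h, beside mean levels of 313 and 3448 CPM. What part free RNA had in the Defa24 levels was not tested. The test of the difference between the clone and control changes gave 0 of 16 Paneth genes at an unadjusted p under 0.05, with a median of -0.63.

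Regulators of secretory progenitors differed among the 48 h mice. Atoh1 (ENSMUSG00000073043, chr6:64729125-64731245, plus strand), the transcription factor that commits cells to the secretory lineage, had 0 counts in mice 1 and 2, and was at 5.01 CPM in mouse 3 and 40.2 CPM in mouse 4. At 72 h it was at 36.2, 47.6, 40.4 and 56.5 CPM in mice 5, 6, 7 and 8. Mouse 4 thus lay inside the 72 h range and the other three below it, on 6 counts in all at 48 h. The log2 difference was 2.56 ± 0.65 (SE, edgeR adjusted p = 0.84), beside -0.26 ± 0.28 in control cells. The difference between the 2 was 2.92 ± 0.88 (edgeR adjusted p = 1.0). Without mouse 4 Atoh1 was called at 4.89 ± 0.75 (edgeR adjusted p = 0.0481), as were Tff3 and Scin, which severs actin filaments, 0.0382% of 7846 genes.

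Of the 10 progenitor genes 7 were tested and 7 had an estimate above 0, with a median of 0.68. An unadjusted p under 0.05 was found for 3 (3.29% of all genes were higher at that level), and 0 were called. These 3 were Atoh1, Creb3l1 and Hepacam2. Creb3l1, a membrane-bound transcription factor of secretory cells, was at 0, 17.9, 100.2 and 80.5 CPM and then 82.1, 136, 70.1 and 113 CPM (1.06 ± 0.47). Hepacam2, an adhesion molecule of secretory cells, was at 0, 2.24, 45.1 and 137 CPM and then 66.4, 151, 69.6 and 116 CPM (1.48 ± 0.65). Mice 1 and 2 lay under all 72 h samples for both genes, as did mouse 3 for Hepacam2, and mouse 4 did for neither. Spdef, which drives goblet and Paneth maturation, had an estimate of 0.68 ± 0.61, the Notch ligand Dll1 0.28 ± 0.51, Foxa3 0.41 ± 0.35 and Sox4 0.05 ± 0.29. The median was 0.11 in pool 1 and 1.52 in pool 2, 0.38 without mouse 2, 1.26 without mouse 4 and 0.26 without mouse 6. In control cells the median was -0.26.

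An Atoh1 UMI was found in 4 of 76 clone cells at 48 h (5.26%, Wilson 95% interval 2.07% to 12.8%, median 2437 UMIs). At 72 h it was found in 135 of 656 (20.6%, 17.7% to 23.8%, median 19934 UMIs). In enterocyte-like control cells, which should lack it, it was found in 1 of 141 (0.709%, median 27054 UMIs). With every cell thinned to 1000 UMIs the clone shares were 2.63% (0.725% to 9.10%) and 2.90% (1.86% to 4.48%). The thinned share at 48 h rests on 2 cells, both of mouse 4, and the times are not compared by it. Among cells of at least 5000 UMIs the unthinned shares were 9.68% (3 of 31) and 21.9% (134 of 613), with intervals of 3.35% to 24.9% and 18.8% to 25.3%. All these intervals pool cells of several mice and cover counting error only, so the times are not compared by them. By mouse the unthinned shares at 72 h were 19.0%, 29.7%, 14.2% and 22.4% in mice 5, 6, 7 and 8. Of the 4 cells with an Atoh1 UMI at 48 h, 3 came from mouse 4.

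**Figure D4:**
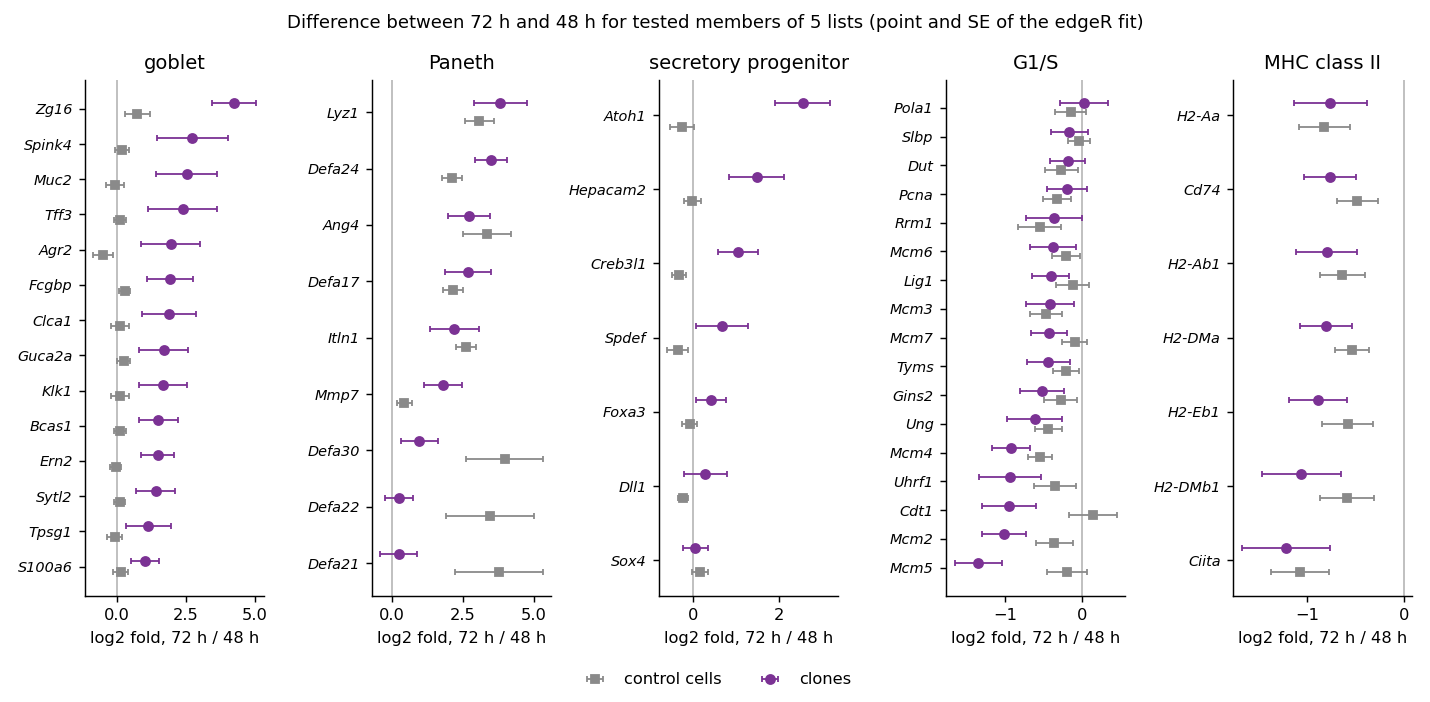
Log2 difference between 72 h and 48 h with its standard error for the tested members of 5 lists, clones in purple and control cells in grey. Goblet and progenitor estimates lie above 0 in clones, with medians of 1.79 and 0.68 beside 0.11 and -0.26 in control cells, and MHC class II estimates lie below 0 in both.

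Enteroendocrine and tuft genes were mostly too rare to test. Of 18 enteroendocrine genes 1 was tested, Sct (secretin), at 0, 4.48, 40.1 and 96.6 CPM and then 58.5, 136, 60.4 and 93.3 CPM (1.57 ± 0.61, edgeR adjusted p = 0.853). Of 15 tuft genes 1 was tested, Kctd12 (1.47 ± 0.67). Dclk1, a kinase that marks tuft cells, had 1 count at 48 h and was at 4.87, 11.2, 0.487 and 39.5 CPM at 72 h, highest in mouse 8. Ccl9, a chemokine on the M cell list, was at 0, 0, 25.0 and 32.2 CPM and then 22.3, 157, 38.5 and 89.4 CPM (2.66 ± 0.99). Tm4sf4 (ENSMUSG00000027801, chr3:57425314-57441677, plus strand), a membrane protein of the tetraspanin-like family, was at 0, 4.48, 0 and 8.05 CPM and then 32.3, 143, 26.3 and 31.7 CPM, without overlap. It rests on 3 counts at 48 h and 506 at 72 h, a ratio of rates of 10.4 (exact 95% interval for counting error alone 3.55 to 50.7). In control cells Tm4sf4 rose by 0.82 ± 0.11 (edgeR adjusted p = 0.0287), from 28.3 to 38.0 CPM up to 49.5 to 58.4 CPM.

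Genes of DNA replication had lower estimates at 72 h, while genes of mitosis were spread around 0. Of 21 G1/S genes 17 were tested and 16 had an estimate below 0. An unadjusted p under 0.05 was found for 5 (2.45% of all genes were lower at that level), and 0 were called. The median was -0.44, beside -0.33 in control cells and 0.01 over all genes tested in the clones. Mcm5, a subunit of the replicative helicase, was at 51.0, 101, 85.1 and 40.2 CPM at 48 h and 31.8, 16.8, 40.4 and 31.1 CPM at 72 h. Mouse 4 overlapped mouse 7 by a small margin (-1.35 ± 0.31, edgeR adjusted p = 0.84). The helicase subunits Mcm2 (-1.02 ± 0.29) and Mcm4 (-0.92 ± 0.25), the licensing factor Cdt1 (-0.95 ± 0.35) and Uhrf1 (-0.94 ± 0.41), which maintains DNA methylation, made up the rest of the 5. Hells, a chromatin remodelling helicase, was at 166, 166, 165 and 153 CPM and then 92.3, 47.6, 144 and 115 CPM, without overlap (-0.74 ± 0.25).

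Without mouse 2 the G1/S median was -0.18, with 12 of 19 estimates below 0 and 2 at an unadjusted p under 0.05. It was -0.08 in pool 1 and -0.86 in pool 2. Of 19 G2/M genes 18 were tested, 0 had an unadjusted p under 0.05, and the median was 0.04. Mki67, the proliferation marker, was at 38.3, 300.1, 406 and 48.3 CPM at 48 h and 364, 192, 382 and 324 CPM at 72 h (0.49 ± 0.45). Mice 1 and 4, with 4 and 8 cells, lay below all 72 h mice, mouse 2 lay within their range and mouse 3 above it.

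Antigen presentation genes had lower estimates at 72 h in both gates. All 7 MHC class II genes were tested and 7 had an estimate below 0. Of these, 6 had an unadjusted p under 0.05 (2.45% of all genes were lower at that level) and 0 were called. The median was -0.81 in clones and -0.59 in control cells, where 5 of 7 were lower at an unadjusted p under 0.05 (4.02% of all genes). Their summed share of clone UMIs was 0.523%, 0.413%, 0.254% and 0.226% in mice 1, 2, 3 and 4 and 0.148%, 0.183%, 0.142% and 0.264% in mice 5, 6, 7 and 8. Mouse 8 lay above mice 3 and 4, and the other 72 h mice lay below all 48 h mice. Cd74, the invariant chain, was at 2678, 2199, 1357 and 1231 CPM and then 909.9, 1072, 815 and 1386 CPM (-0.77 ± 0.26). H2-DMa, which helps load peptides, was at 140.3, 96.3, 75.1 and 105 CPM and then 46.9, 58.8, 43.3 and 74.9 CPM (-0.81 ± 0.27), just without overlap. Ciita, the transactivator of these genes, had an estimate of -1.22 ± 0.46 (edgeR adjusted p = 0.853).

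Psmb8 (ENSMUSG00000024338, chr17:34197721-34201454, plus strand) and Psmb9 (chr17:34181987-34187764, minus strand), which encode subunits of the immunoproteasome, lie close to each other in the MHC region. Psmb8 was at 293, 428, 296 and 274 CPM at 48 h and 87.5, 137, 103 and 256 CPM at 72 h (-1.21 ± 0.32, edgeR adjusted p = 0.853). Psmb9 was at 179, 159, 105 and 129 CPM and then 36.4, 64.4, 39.4 and 102 CPM (-1.24 ± 0.35). Neither overlapped, and mouse 8 came close to the 48 h mice in both. The class II median was -0.24 in pool 1 and -1.37 in pool 2, and 1 of 7 members kept an unadjusted p under 0.05 without mouse 5, and 3 without mouse 2. The clone and control changes of the 7 genes differed by a median of -0.15, with 0 at an unadjusted p under 0.05.

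Stem cell genes had no shared direction. Of 20 listed, 18 were tested, 13 had an estimate above 0, 0 had an unadjusted p under 0.05, and the median was 0.12 (0.41 in pool 1 and -0.07 in pool 2, -0.06 without mouse 7). Lgr5 (chr10:115450311-115587780, minus strand) was at 153, 146, 45.1 and 161 CPM at 48 h and 136, 81.1, 153 and 92.3 CPM at 72 h (-0.06 ± 0.32). Mouse 3 lay below all 72 h mice, and the other 48 h mice lay at or above their upper part. Control cells were at 27.5 to 67.3 CPM. At 1000 UMIs per cell a Lgr5 UMI was found in 11.8% of clone cells at 48 h (9 of 76, 6.36% to 21.0%) and in 10.7% at 72 h (70 of 656, 8.53% to 13.3%), and in 0 of 141 enterocyte-like control cells (upper bound 2.65%). Unthinned shares were 28.9% and 49.2%. The intervals for Lgr5 pool cells of several mice and cover counting error only. Olfm4, a secreted glycoprotein of crypt base cells, was at 5089, 3335, 1868 and 1368 CPM and then 3086, 2518, 3785 and 2125 CPM (0.14 ± 0.32). The sign of the Lgr5 and Olfm4 estimates changed between pools, from 0.40 and 0.90 in pool 1 to -0.39 and -0.57 in pool 2. Slc12a2, an ion cotransporter enriched in crypts, had an estimate of 0.40 ± 0.22.

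Among signalling genes few list members had an unadjusted p under 0.05, and 0 were called. Over all genes tested, 163 of 6651 (2.45%) were lower at 72 h at that level. Of 13 Wnt targets tested 0 had an unadjusted p under 0.05 (median 0.26), with Axin2 at -0.08 ± 0.23 and Ascl2 at 0.27 ± 0.35. Of 5 Notch genes tested 1 had, Nrarp, a target that feeds back on Notch signalling. It was at 38.3, 51.5, 45.1 and 32.2 CPM and then 24.1, 22.4, 22.9 and 24.6 CPM, without overlap (-0.91 ± 0.26, edgeR adjusted p = 0.853). Hes1, the Notch effector that represses Atoh1, was at 331 to 561 CPM at 48 h and 385 to 715 CPM at 72 h (0.32 ± 0.24). Of 5 BMP response genes tested 1 had, Id1 (ENSMUSG00000042745, chr2:152736251-152737410, plus strand), an inhibitor of bHLH transcription factors. Id1 was at 255, 175, 255 and 193 CPM and then 151, 123, 84.7 and 112 CPM, without overlap (-0.88 ± 0.22, edgeR adjusted p = 0.84). In control cells Id1 differed by 0.03 ± 0.20, and the 2 changes differed by -0.84 ± 0.32 (edgeR adjusted p = 1.0). Id3 had an estimate of -0.35.

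The genes of smallest p without overlap named for this comparison, 10 in each direction, held 10 not yet described, and 0 passed the test. Higher by their estimates at 72 h were Fchsd2, a membrane-bending protein (22.5 ± 2.79 to 49.7 ± 5.78 CPM, mean ± SD, n = 4), and Akap13, a kinase anchor protein (25.5 to 51.5 CPM at 48 h and 77.5 to 111 CPM at 72 h). Sult1d1, a sulfotransferase, had an estimate of 1.03 ± 0.26, Glul, glutamine synthetase, 1.06 ± 0.30, and Chd9, a chromatin remodeller, 0.74 ± 0.21. Lower by their estimates were Nae1, a subunit of the enzyme that activates NEDD8 (66.0 ± 4.39 to 37.1 ± 4.89 CPM), and Phb2, a mitochondrial prohibitin (321 ± 65.9 to 208 ± 18.9 CPM). Nhp2, part of the box H/ACA ribonucleoproteins, had an estimate of -0.66 ± 0.20, Rybp, a Polycomb subunit, -0.83 ± 0.27, and the transcription factor Cebpb -0.82 ± 0.28. For Nae1 the control cells were at 40.8 and 42.5 CPM, at the level of the 72 h clones. The estimates of these 10 genes kept their sign in every setting that tested them. Their choice for groups without overlap made this likely beforehand, so it adds no support.

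Immediate early genes had estimates above 0 in all but 1 member, and lists of housekeeping genes lay near the median of all genes. Of 13 immediate early genes 12 lay above 0, with a median of 0.32 and 0.18 in control cells. In the clones 3 of the 13 had an unadjusted p under 0.05, beside 3.29% of all genes higher at that level. They were Atf3 (0.86 ± 0.26), Dusp1 (0.55 ± 0.22) and Klf6 (0.67 ± 0.27). Of 19 genes of folding in the endoplasmic reticulum 1 had an unadjusted p under 0.05, Ddit3 (1.02 ± 0.39), and the median was 0.05. Nuclear genes of oxidative phosphorylation had a median of -0.15, with 22 of 25 estimates below 0 and 1 at an unadjusted p under 0.05, Cycs (cytochrome c, -0.70 ± 0.28). Ribosomal protein genes had a median of 0.07 and heat shock genes of -0.02. Of 8 mature and 6 immature enterocyte genes tested 0 had an unadjusted p under 0.05. Fabp6, the ileal bile acid carrier, was at 38.3, 2629.5, 987 and 72.4 CPM at 48 h and 382, 187, 1096 and 2032 CPM at 72 h, with wide overlap.

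**Figure D5:**
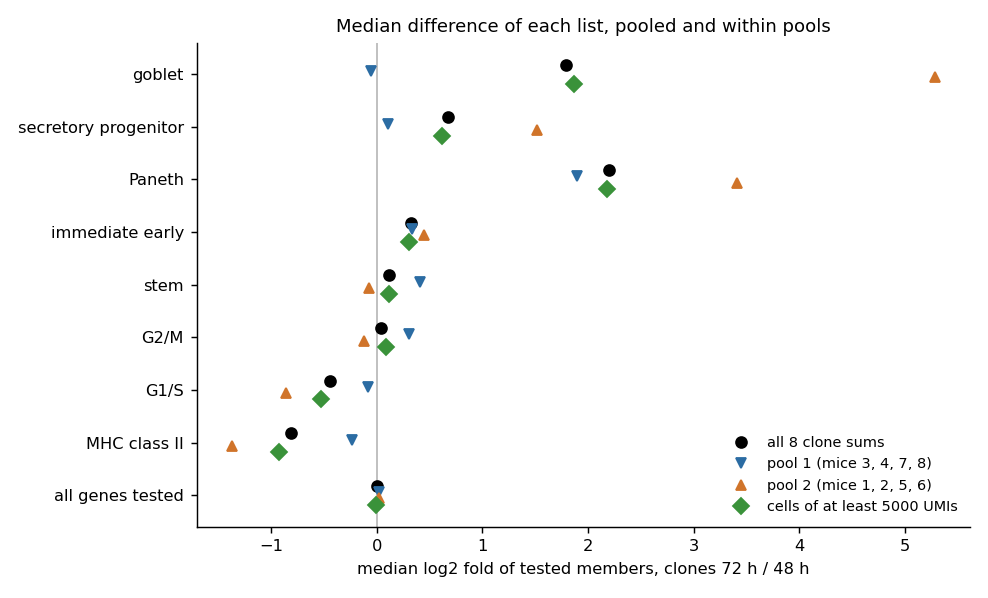
Median log2 difference (72 h over 48 h, clones) of the tested members of 8 lists and of all genes tested, for all 8 sums, each pool alone and cells of at least 5000 UMIs. The goblet median is -0.05 in pool 1 and 5.29 in pool 2, and the G1/S and MHC class II medians also lie nearer to 0 in pool 1.

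The test of whether the clones changed more than the control cells of the same mice covered 10642 genes. Goblet genes had a change above 0 in 14 of 14, with a median of 1.22 and 2 at an unadjusted p under 0.05 (Zg16, 2.86 ± 0.92, and Ern2, 1.58 ± 0.66), beside a median of 0.06 over all genes. Progenitor genes had 8 of 9 above 0 with a median of 1.10 and 2 at an unadjusted p under 0.05 (Atoh1 and Creb3l1). G1/S genes had 15 of 21 below 0 with a median of -0.19 and 2 at that level (Mcm5, -1.09 ± 0.43, and Cdt1, -1.08 ± 0.50). No gene was called. The clone and control sums of 1 mouse are a pair, and with mouse as a replicate block edgeR called 2 genes higher (0.0188%), the hormone gene Gcg and Chgb, a granin (adjusted p = 0.0317 for both). Of the 72 h clone counts, 2517 of 2524 for Gcg and 2251 of 2262 for Chgb came from mouse 8, and all 52 Chgb counts at 48 h from mouse 3.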

How the data were processed

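Cells of 8 mice were sorted into 2 gates, labelled with 8 hashtags and sequenced as 2 pooled droplet libraries. The deposited values are raw UMI counts per gene (32285 genes) and hashtag, made with Cell Ranger 6.1.2 on mm10 per the submitters' processing notes. The authors' hashtag calling and cell filters are not given in the sources used here. Members, gene lists and tests were chosen with earlier results of these data known.

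Counts were summed per mouse and gate, filtered (filterByExpr), TMM-scaled and tested with edgeR 4.0.16's quasi-likelihood test (R 4.3.3, limma 3.58.1), with pool as a covariate and Benjamini-Hochberg adjustment at 0.05. Clone and control sums were scaled separately, and DESeq2 1.42.0 was an alternative. The separate mouse numbers in the labels name separate animals. Clone sums held 77566 to 6964208 UMIs and control sums 1975221 to 5452604, and the number of cells limits precision most at 48 h. Clone and control cells of 1 mouse pair by animal, and the clone contrast itself compares different mice.

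Cells were clustered in scanpy 1.11.5 (counts scaled to 10000, 2000 variable genes, 30 components, 15 neighbours, Leiden resolution 1.0). A cluster took the name of the list with most of its 50 leading genes and at least 3 markers. It stayed unnamed where its 10 leading genes by fold held more markers of another class, a limit set after seeing the data that left out cluster 6. A cluster with this conflict between a pair of secretory lists counted as secretory. Doublets were treated only by the 60% hashtag share. Class shares had exact permutation tests over 70 assignments, whose smallest two-sided p is 0.0286. Thinning drew 1000 UMIs per cell, which left out 0 clone cells. No class held 10 or more clone cells in 3 sums of each time, so no test was run within a class. Named genes were, in each direction, those of smallest p without overlap and with a mean log2 CPM of at least 5 until 10 were named, the 3 highest of each list and a fixed set of markers. Other named genes (list members at an unadjusted p under 0.05, genes called in an alternative, and single examples) were chosen after their values were seen. Coordinates are from GENCODE M21. Scripts were tested on simulated data. The alternatives were other limits on mitochondria and hashtags, HTODemux (Seurat 5.3.0), thinning, no count filter, other fits, pools apart and each mouse left out. Cells of at least 5000 UMIs and the sum without its deepest cell were added after seeing the data.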

Additional observations from a re-analysis of the deposited data

Results flagged for a closer look

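In each group of 4 mice the highest and lowest value was set against the others by Dixon's gap test, in 96 groups, and 10 stood apart. Chance alone gives about 1 in 20 for normally distributed values, a rate that shares and low counts such as these need not follow. A class present in only 1 mouse of its group is flagged whatever its share, as with both enteroendocrine-like flags below. The number of flags is therefore not read as an excess. In the 48 h clones, mouse 4 stood above the others for Tff3 (13899 CPM against 115 to 1137) and for Atoh1 (40.2 CPM against 0 to 5.01), on 8 cells. Mouse 4 was also low for Hells, at 153 CPM against 165 to 166, on 19 counts. Mouse 3, the shallow sample, stood below the others for Lgr5 (45.1 CPM against 146 to 161) and for Sox4 (155 CPM against 281 to 298). It held the single enteroendocrine-like cell of 48 h, 2.17% of its cells. Mouse 2 was high for Psmb8, at 428 CPM against 274 to 296. In the 72 h clones, mouse 6 was high for Tm4sf4, at 143 CPM against 26.3 to 32.3. Mouse 8 had 9.04% enterocyte-like cells against 2.65% to 3.07%, and 1.46% enteroendocrine-like cells against 0 in the other mice.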

How the results depend on the processing

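Genes called higher at 72 h in clones numbered 0, and 4 with DESeq2 (Defa24, Guca2b, Zg16 and Tm4sf4), 1 with all 16 sums in one fit, 1 with cells of at least 5000 UMIs, 2 with a mitochondrial limit of 50%, 2 with a top hashtag of 80%, 67 with no count filter, 2 in pool 1, 12 in pool 2 and 0 to 4 with 1 mouse left out (3 without mouse 4, 4 without mouse 5). Genes called lower numbered 1 with cells thinned to 1000 UMIs and 8 with no count filter. In control cells 10 were called higher and 0 lower, 19 and 2 with DESeq2, and 5 to 28 higher and 0 to 5 lower with 1 mouse left out (5 without mouse 6, 17 without mouse 5, 28 without mouse 8). With mouse as a replicate block, which pairs the clone and control sums of each animal, 2 genes changed more in clones, against 0 without it. The secretory share differed by -3.24 points with a mitochondrial limit of 50%. At that limit it counted a Paneth-like cluster with a median of 31.0% mitochondrial UMIs. For these counts and for the signs below the cause was not tested.

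Some estimates of named genes turned sign. Olfm4 was at -0.072 with HTODemux, -0.14 with thinned cells, -0.11 with a mitochondrial limit of 10%, -0.011 without pool, -0.57 in pool 2 and -0.17 to 0.41 with 1 mouse left out. Sox4 was at -0.021 with HTODemux, -0.068 with thinned sums, -0.30 and -0.085 with mitochondrial limits of 10% and 50%, -0.35 in pool 2, -0.086 without the deepest cell and -0.26 to 0.24 with 1 mouse left out. Lgr5 was at 0.037 with no count filter, 0.40 in pool 1 and -0.39 to 0.14 with 1 mouse left out, and Axin2 at 0.014, 0.20 and -0.27 to 0.035. Ascl2 was at -0.21 with HTODemux, -0.085 with a mitochondrial limit of 10% and -0.040 in pool 2. Dll1 was at -0.25 in pool 1, -0.049 with a top hashtag of 80% and -0.057 to 1.10 with 1 mouse left out. In pool 1 Tff3 was at -0.27, Spdef at -0.052 and Muc2 at -0.0071. Mki67 was at -0.20 with a mitochondrial limit of 50%, and Xist at 0.29 in pool 2 and -2.41 to 0.26 with 1 mouse left out. Over 34 genes and 24 settings, 41 estimates reversed, 697 kept direction and side of the threshold, and 33 kept direction and passed the threshold. With no count filter the median of all genes moved to 0.29.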
